A study of Mus musculus with 8 samples.

Results

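The genes described here are 9 interferon-stimulated genes of the mouse, Ifit1, Ifit3, Isg15, Irf7, Oasl2, Bst2, Ifih1, Usp18 and Rsad2. They were taken by symbol from a table of read counts with 27041 rows, and all 9 have a row. In other cells loss of the histone demethylase LSD1 can raise an interferon response, and the question asked was whether these genes are higher in skeletal muscle whose fibers lack LSD1. The libraries are bulk polyA RNA of skeletal muscle from 9-week-old male C57BL/6J mice. All mice carried LSD1 alleles with a floxed exon 1 (LSD1 L2/L2). Ctrl mice had these alleles alone, and LSD1skm-/- mice also had HSA-Cre, a transgene active in myofibers, so that the other cells of the muscle keep LSD1. Counts are available for 4 Ctrl libraries (replicates 1 to 4) and 2 LSD1skm-/- libraries (replicates 1 and 2). Reads counted per library were 36355538, 32616912, 36213735 and 41278769 in Ctrl and 30654828 and 37788092 in LSD1skm-/- muscle.

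Interferons are secreted proteins that cells release when they sense viral or misplaced nucleic acid. Type I interferons bind a receptor that acts through the kinases JAK1 and TYK2 on a complex of transcription factors, and this complex binds a DNA element, the interferon-stimulated response element (ISRE), in the promoters of many genes. A resting tissue such as muscle holds these genes at a low level, and the response to interferon typically raises many of them together.

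The targeted gene Kdm1a, which encodes LSD1, was measured first because it checks the labels. Kdm1a stood at 22.9, 21.9, 28.0 and 3.65 CPM (counts relative to the total of the library, scaled by the TMM method) in Ctrl replicates 1 to 4 and at 2.95 and 3.47 CPM in LSD1skm-/- replicates 1 and 2. The library labelled Ctrl replicate 4 was therefore at the level of the LSD1skm-/- libraries, well below the other Ctrl libraries, against its label. Labels were kept as deposited, and each comparison is given with all 6 libraries and again without the library labelled Ctrl replicate 4. Kdm1a had a log2 fold change of -2.56 (SE 0.74) with all 6 libraries and an adjusted p of 0.557 in edgeR. With that library left out Kdm1a had a log2 fold change of -2.91 (SE 0.17) and an edgeR adjusted p of 0.000669, a value that follows in part from the choice, since the library was set aside for its Kdm1a level. Over the genes together its counts were also nearer to LSD1skm-/- replicates 1 and 2 (chi-square per degree of freedom 26.7 and 37.2) than to Ctrl replicates 1 to 3 (56.3, 54.5 and 76.6). Ctrl replicates 1 and 2 stood apart in another way: markers of B cells summed to 22.02 and 20.9 CPM in these libraries and to at most 0.410 CPM in each of the other 4.

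Promoters of these genes were searched for the element through which the interferon complex acts. The core of the ISRE was searched as GAAANNGAAA, on both strands (TTTCNNTTTC when read from the other strand), in RefSeq promoters of build GRCm38.p6 that run from 250 bases before to 50 bases after the start of each gene. Of the 9 genes 8 had a promoter in this set, and 6 of the 8 (75%) held the core, beside 30 of 60 (50%) other interferon-stimulated genes with a promoter and 1079 of 27025 genes (3.99%) over all promoters of the same length. Ifit1 had 2 matches, beginning 104 and 85 bases before the start, Ifit3 had 2 (156 and 122 bases before), Bst2 had 2 (130 and 124 bases before, overlapping), Isg15 had 3 that overlap (78, 72 and 66 bases before) and Rsad2 had 1 (120 bases before). In Ifih1 the 1 match began at base 33 after the start. No match lay in the windows of Irf7 and Oasl2, which says only that these letters are not there. The stretches around the matches of 5 genes are shown 5′ to 3′ on the strand of the gene, with the matches in capitals, because they show where the element lies and, in all but Rsad2, how closely it is repeated. They lie at chr19:34640765-34640833 (plus strand), chr19:34583353-34583436 (plus strand), chr4:156200855-156200916 (minus strand), chr8:71537567-71537622 (minus strand) and chr12:26456543-26456592 (minus strand), in that order.
Ifit1: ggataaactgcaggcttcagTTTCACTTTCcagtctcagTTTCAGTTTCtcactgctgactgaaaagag
Ifit3: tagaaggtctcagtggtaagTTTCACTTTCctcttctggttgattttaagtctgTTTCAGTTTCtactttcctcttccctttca
Isg15: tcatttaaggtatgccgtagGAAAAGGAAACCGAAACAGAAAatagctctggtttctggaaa
Bst2: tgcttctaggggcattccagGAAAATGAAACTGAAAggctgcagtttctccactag
Rsad2: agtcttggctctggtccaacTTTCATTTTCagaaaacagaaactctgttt
A match is a description of sequence, and binding there was not measured.

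None of the 9 genes passed an adjusted p of 0.05 in edgeR in either comparison. With all 6 libraries, 8 of the 9 had a mean count above 50 and were tested among 11364 genes, and 0 of these 8 had an adjusted p under 0.05, where the share of all genes called was 0%. The same 0 of 8 had an unadjusted p under 0.05 in edgeR, where 1011 of all 11364 genes did, and DESeq2 called 0 of 8 as well, with 46 called over all genes. By the thresholds the study's methods name (p under 0.05, taken here as unadjusted, and a fold change above 1.3 or below 0.77), 0 of 8 were called higher and 0 lower, where 3.43% of all genes were called higher and 2.88% lower. The values of the LSD1skm-/- and Ctrl libraries overlapped for all 9 genes, and 9.8% of all tested genes had LSD1skm-/- values above every Ctrl value. Leaving out the library labelled Ctrl replicate 4, 7 of the 9 were tested among 11200 genes. There 0 of 7 had an edgeR adjusted p under 0.05, where 5.27% of all genes did, and DESeq2 also called 0 of 7, beside 1037 of all 11200 genes. Irf7 and Ifih1, 2 of the 7, passed the study's thresholds in edgeR and were higher in LSD1skm-/- muscle, where 9.96% of all genes were called higher and 5.05% lower, and 0 of 7 did with DESeq2, by which 1633 of all 11200 genes passed in either direction. The groups did not overlap for Irf7, Bst2 and Ifih1, 3 of the 7 tested genes, all higher in LSD1skm-/- muscle, and 20.1% of all tested genes were placed in that way. In bulk tissue fewer cells of a type and less RNA per cell cannot be told apart, here and in what follows.

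**Figure D1:**
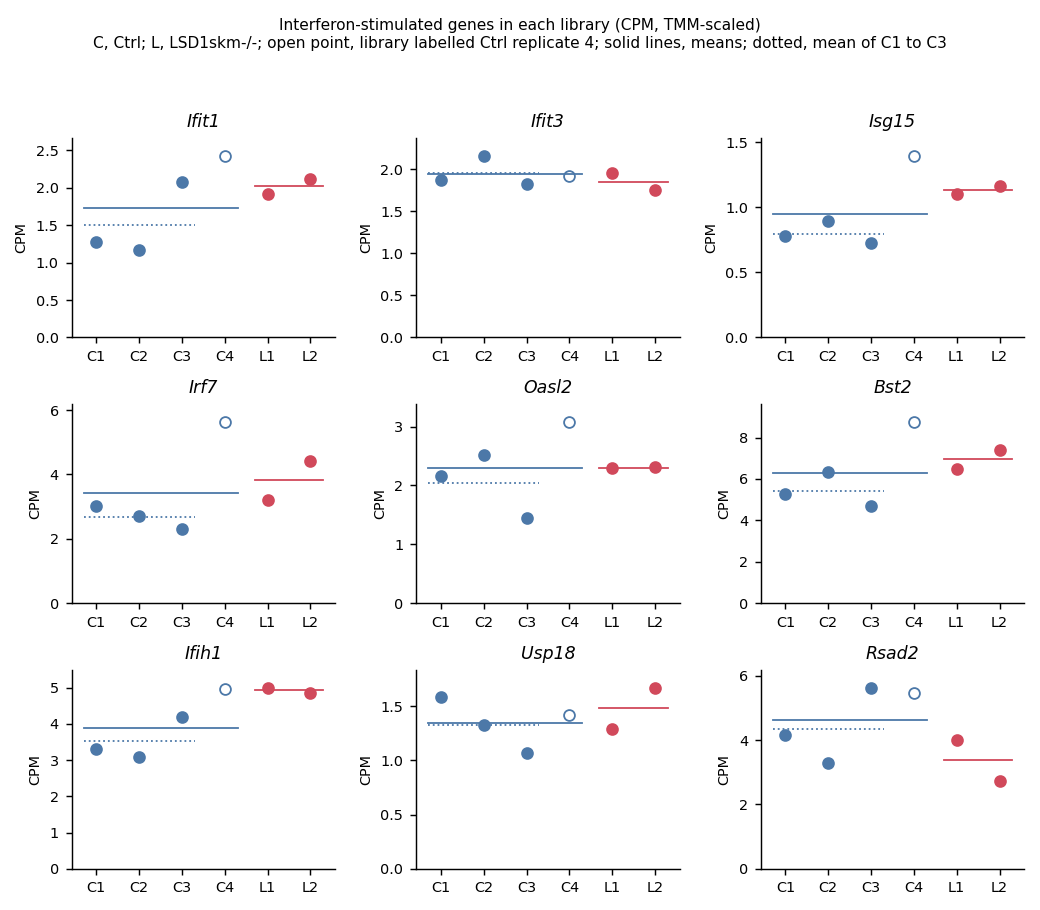
Level of each of the 9 interferon-stimulated genes in each library, in CPM on axes that start at 0. Each point is 1 library, the open point is the library labelled Ctrl replicate 4, solid lines are group means and the dotted line is the mean of Ctrl replicates 1 to 3. In 5 of the 9 genes the open point is the highest of the 6.

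Among the genes that start or relay the response, Ifih1 encodes MDA5, a cytoplasmic sensor of long double-stranded RNA. Ifih1 was at 3.29, 3.07, 4.19 and 4.95 CPM in Ctrl replicates 1 to 4 and at 4.997 and 4.85 CPM in LSD1skm-/- replicates 1 and 2. The library labelled Ctrl replicate 4 lay between the LSD1skm-/- libraries, and the other Ctrl libraries lay below both. Ifih1 had a log2 fold change of 0.34 (SE 0.22, 95% interval -0.18 to 0.86) with all 6 libraries and 0.49 (SE 0.19, interval 0.04 to 0.93) without the library labelled Ctrl replicate 4, a fold change of 1.402, with an edgeR p of 0.0352 and adjusted p of 0.209. With Ctrl replicate 1 or Ctrl replicate 2 also left out, Ifih1 no longer passed the study's thresholds in edgeR (log2 fold change 0.438 and 0.398, adjusted p 0.386 and 0.396). Nor did it without LSD1skm-/- replicate 1 or replicate 2, where the log2 fold change was 0.464 and 0.508. A fit that leaves out an LSD1skm-/- replicate, here and below, holds 1 library of that group, assumed to vary like the Ctrl libraries.

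Irf7 encodes the transcription factor that amplifies production of type I interferon. Irf7 was at 3.03, 2.70, 2.31 and 5.63 CPM in Ctrl replicates 1 to 4 and at 3.21 and 4.43 CPM in LSD1skm-/- replicates 1 and 2. The highest of the 6 values was in the library labelled Ctrl replicate 4, and LSD1skm-/- replicate 1 was near Ctrl replicate 1. The log2 fold change was 0.15 (SE 0.37, 95% interval -0.70 to 1.01) with all 6 libraries and 0.52 (SE 0.22, interval 0.01 to 1.02) without the library labelled Ctrl replicate 4, a fold change of 1.43, with an edgeR p of 0.0474 and adjusted p of 0.243. Leaving out LSD1skm-/- replicate 2 as well brought the log2 fold change to 0.26, and Irf7 lost its place past the thresholds. Irf7 also lost it without Ctrl replicate 2 (log2 fold change 0.519, edgeR adjusted p 0.362) or Ctrl replicate 3 (0.418, edgeR adjusted p 0.430).

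Among the effectors, Ifit1 and Ifit3 encode tetratricopeptide proteins that bind viral RNA or act with the proteins that do. The genes are neighbours on chromosome 19 (Ifit3 at chr19:34583531-34588731 and Ifit1 at chr19:34640871-34650009 in GENCODE vM21, GRCm38), and the other 7 of the 9 lie on 7 other chromosomes. Ifit1 was at 1.27, 1.17, 2.08 and 2.42 CPM in Ctrl replicates 1 to 4 and at 1.92 and 2.12 CPM in LSD1skm-/- replicates 1 and 2. Ctrl replicates 1 and 2 were low, Ctrl replicate 3 stood inside the range of the LSD1skm-/- libraries, and the library labelled Ctrl replicate 4 was the highest. For Ifit1 the log2 fold change was 0.21 (SE 0.34) with all 6 libraries and 0.42 (SE 0.29, 95% interval -0.26 to 1.11) without the library labelled Ctrl replicate 4, with an edgeR adjusted p of 0.475. Ifit1 passed the study's thresholds in that comparison with Ctrl replicate 3 also left out (0.73, edgeR adjusted p 0.184), and it had 0.31 without Ctrl replicate 1 and 0.27 without Ctrl replicate 2. Ifit3 was the flattest of the 9, at 1.88, 2.15, 1.82 and 1.92 CPM in Ctrl and 1.95 and 1.75 CPM in LSD1skm-/- muscle. The fold change of Ifit3 on the log2 scale was -0.07 (SE 0.21, interval -0.55 to 0.41) and -0.07 (SE 0.20, interval -0.55 to 0.40) in the respective comparisons. Of the stretches of 50 bases in Ifit3 transcripts 51.2% also occur in Ifit3b, a near copy, so reads kept only when they align once cannot come from that part of the gene and the level of Ifit3 is uncertain. Ifit3b, counted on its own row, had log2 fold changes of 0.07 and -0.02. Ifit1 shares 7.13% of its stretches, nearly all with Ifit1bl2.

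Bst2 encodes tetherin, a membrane protein that holds budding virus particles at the cell surface. Bst2 was at 5.28, 6.36, 4.68 and 8.76 CPM in Ctrl replicates 1 to 4 and at 6.47 and 7.42 CPM in LSD1skm-/- replicates 1 and 2. LSD1skm-/- replicate 1 was just above Ctrl replicate 2, and the library labelled Ctrl replicate 4 was above both LSD1skm-/- libraries. The log2 fold change was 0.15 (SE 0.25) with all 6 libraries and 0.36 (SE 0.17, 95% interval -0.05 to 0.77) without the library labelled Ctrl replicate 4, with an edgeR adjusted p of 0.307. With Ctrl replicate 2 also left out Bst2 passed the study's thresholds (0.482, edgeR adjusted p 0.228).

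Oasl2 encodes an oligoadenylate synthetase-like protein, and Rsad2 encodes viperin, an enzyme that makes a nucleotide that ends viral RNA chains. Oasl2 was at 2.16, 2.52, 1.45 and 3.08 CPM in Ctrl and at 2.29 and 2.31 CPM in LSD1skm-/- muscle, so both LSD1skm-/- libraries lay above Ctrl replicates 1 and 3 and below Ctrl replicate 2 and the library labelled Ctrl replicate 4. Oasl2 had a log2 fold change of -0.0042 (SE 0.31) with all 6 libraries and 0.18 (SE 0.26, 95% interval -0.44 to 0.79) without the library labelled Ctrl replicate 4. The latter became -0.023 with Ctrl replicate 3 also left out, and 0.351 with Ctrl replicate 2 left out instead. Rsad2 was at 4.16, 3.29, 5.64 and 5.47 CPM in Ctrl and at 4.02 and 2.73 CPM in LSD1skm-/- muscle. It was the gene with the most negative fold change of the 9, since LSD1skm-/- replicate 2 was the lowest library and Ctrl replicate 3 and the library labelled Ctrl replicate 4 were the highest. For Rsad2 the log2 fold change was -0.46 (SE 0.28, interval -1.11 to 0.19) with all 6 libraries and -0.37 (SE 0.28, interval -1.03 to 0.29) without the library labelled Ctrl replicate 4, with edgeR adjusted p of 0.621 and 0.518. With all 6 libraries but LSD1skm-/- replicate 2 it was -0.206, and with all but LSD1skm-/- replicate 1 it was -0.77. In the other comparison these values were -0.114 and -0.675, and -0.145 with Ctrl replicate 3 left out instead.

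The remaining pair acts on protein modification. Isg15 encodes a ubiquitin-like protein that is joined to other proteins, and Usp18 encodes the protease that removes it and that also dampens signaling at the interferon receptor. Isg15 was at 0.779, 0.891, 0.723 and 1.39 CPM in Ctrl replicates 1 to 4 and at 1.10 and 1.17 CPM in LSD1skm-/- replicates 1 and 2. Ctrl replicates 1 to 3 were below both LSD1skm-/- libraries and the library labelled Ctrl replicate 4 was above them. With a mean count of 36.8, Isg15 was below the limit of 50. In a fit that keeps lower counts (filterByExpr) its log2 fold change was 0.26 (SE 0.34, 95% interval -0.52 to 1.04) with all 6 libraries and 0.50 (SE 0.28, interval -0.14 to 1.148) without the library labelled Ctrl replicate 4, with edgeR adjusted p of 0.823 and 0.377. Usp18 was at 1.59, 1.32, 1.07 and 1.41 CPM in Ctrl and at 1.29 and 1.67 CPM in LSD1skm-/- muscle, and the groups overlapped with or without the library labelled Ctrl replicate 4. Usp18 had a log2 fold change of 0.14 (SE 0.26) with all 6 libraries. Its mean count was 47.8 without the library labelled Ctrl replicate 4, and the filterByExpr fit gave 0.16 (SE 0.27, interval -0.48 to 0.79). With 1 more library left out this value ran from -0.041 (without LSD1skm-/- replicate 2) to 0.319 (without LSD1skm-/- replicate 1). Of the exon bases of Usp18 4.44% overlap a transcript on the other strand, Gm44148.

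**Figure D2:**
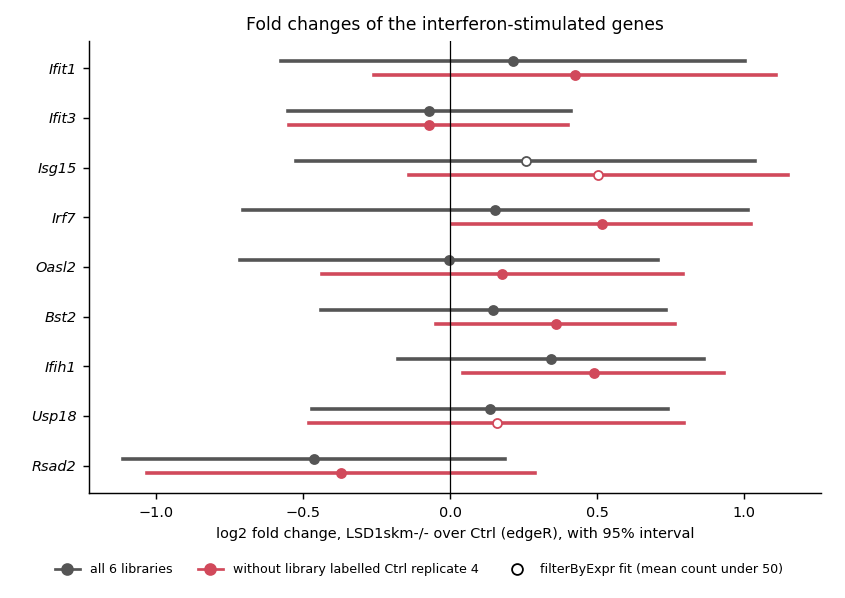
Log2 fold change of LSD1skm-/- over Ctrl for each of the 9 genes (horizontal axis, points) with its 95% interval (lines), with all 6 libraries in grey and without the library labelled Ctrl replicate 4 in red. Open points are from the fit that keeps genes with a mean count under 50. Every grey interval spans 0, and the red intervals of Irf7 (0.01 to 1.02) and Ifih1 (0.04 to 0.93) lie above it.

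Over the group, the median log2 fold change of the tested genes was 0.14 with all 6 libraries, 5 of 8 above 0, where the median of all tested genes was -0.0077 and 48.6% were above 0. With each library left out in turn the median of the group ran from 0.007 (without LSD1skm-/- replicate 2) to 0.36. Without the library labelled Ctrl replicate 4 the median was 0.36, 5 of 7 above 0, beside -0.0049 and 49.0% for all tested genes. The summed level of the 9 genes was 23.4, 23.5, 24.0 and 35.02 CPM in Ctrl replicates 1 to 4 and 27.2 and 28.5 CPM in LSD1skm-/- replicates 1 and 2. Both LSD1skm-/- libraries thus lay between Ctrl replicates 1 to 3 and the library labelled Ctrl replicate 4, which had the highest value in 5 of the 9 genes (Ifit1, Isg15, Irf7, Oasl2 and Bst2). Ifit3, Ifih1, Usp18 and Rsad2 were highest in Ctrl replicate 2, LSD1skm-/- replicate 1, LSD1skm-/- replicate 2 and Ctrl replicate 3, respectively. With 4 against 2 libraries no exact permutation test of a single value can give a p below 0.0667, and with 3 against 2 none below 0.1.

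Per length of exon, the 9 genes were low and spread over a wide range. Bst2 was the most abundant at a mean of 7.19 CPM per kb over the 6 libraries, followed by Isg15 (1.33 CPM per kb) and Ifit3 (1.09). Rsad2, Irf7 and Ifit1 followed at 0.973, 0.941 and 0.689 CPM per kb, and Ifih1, Usp18 and Oasl2 were lowest at 0.517, 0.499 and 0.361. Neighbours in this order below Bst2 overlapped between libraries, and the place of Ifit3 is a lower limit, since 51.2% of its stretches are shared. Over the 6 libraries the genes did not all vary together. As a description, Pearson's r between the log2 CPM of 2 tested genes ranged from -0.61 to 0.93 over 28 pairs, with a median of 0.14 and 16 pairs above 0. The tested genes whose log2 CPM was most like the mean profile of the group over the 6 libraries were Six5 (r = 0.999), Pgrmc2 (0.99), Ddx58 (0.99), Myl9 (0.99), Mgll (0.99), 4930581F22Rik (0.98), Rhno1 (0.98) and Col5a3 (0.98). Of these Ddx58, which encodes the RNA sensor RIG-I, belongs to the interferon pathway, and it was at 3.15, 3.13, 2.95 and 5.24 CPM in Ctrl and 3.68 and 3.92 CPM in LSD1skm-/- muscle. Each of the 8 had its highest value in the library labelled Ctrl replicate 4, as the profile does. Over the 48 tested genes of the wider set given next, the median r with the profile was 0.46, beside 0.02 for all tested genes. The values ran from -0.72 for Znfx1 to 0.94 for Parp10. Among other genes named below, r was 0.94 for Parp9, 0.91 for Parp12 and 0.90 for Ifi27. It was -0.004 for Ifi203, 0.18 for Gbp4 and 0.20 for Helz2.

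The wider set of interferon-stimulated genes had a median fold change below 0 in both comparisons. Of 77 other such genes 48 were tested, and with all 6 libraries 20 had a log2 fold change above 0 and 28 below, with a median of -0.15. By the study's thresholds 0 were called higher and 3 were called lower, where 3.43% and 2.88% of all tested genes were. Leaving out the library labelled Ctrl replicate 4 brought the median to -0.04 (21 above 0 and 27 below), and there 2 were called higher and 3 were called lower, beside 9.96% and 5.05% of all tested genes. In edgeR 1 of 48 had an adjusted p under 0.05, beside 5.27% of all tested genes. The most abundant of them in CPM were Slfn5, Znfx1 and Ifi27. Slfn5 was at 23.7, 24.8, 24.8 and 34.2 CPM in Ctrl and 23.6 and 20.7 CPM in LSD1skm-/- muscle, and the log2 fold changes without the library labelled Ctrl replicate 4 were -0.14 (SE 0.11) for Slfn5, -0.13 (SE 0.11) for Znfx1 and 0.25 (SE 0.13) for Ifi27. Mx1, another gene of the set, had a mean of 4.67 reads per library, too few to be tested, and nothing is drawn from its level.

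The gene with an adjusted p under 0.05 was Parp12, which encodes a mono-ADP-ribosyltransferase induced by interferon. Parp12 was at 4.76, 5.04, 5.09 and 9.80 CPM in Ctrl replicates 1 to 4 and at 8.61 and 8.51 CPM in LSD1skm-/- replicates 1 and 2. The library labelled Ctrl replicate 4 was with the LSD1skm-/- libraries, and Ctrl replicates 1 to 3 were close together below them. Its log2 fold change was 0.47 (SE 0.30, edgeR adjusted p 0.637) with all 6 libraries and 0.79 (SE 0.13, edgeR adjusted p 0.0173) without the library labelled Ctrl replicate 4. With 1 more library left out Parp12 was past the study's thresholds in 5 of 5 fits, 2 of them with a single LSD1skm-/- library (log2 fold change 0.76 to 0.81), and its edgeR adjusted p ran from 0.0334 to 0.115. It was above 0.05 without Ctrl replicate 1 (0.0657), LSD1skm-/- replicate 1 (0.0899) or LSD1skm-/- replicate 2 (0.115), and 0.147 with Ctrl replicates 1 and 2 both left out. Parp9, whose protein acts with DTX3L in the response to DNA damage and interferon, was at 6.06, 5.72, 5.72 and 10.8 CPM in Ctrl and 8.52 and 6.82 CPM in LSD1skm-/- muscle. It passed the study's thresholds without the library labelled Ctrl replicate 4 (log2 fold change 0.40, SE 0.15, edgeR adjusted p 0.202) and lost that place with any of the other libraries left out except LSD1skm-/- replicate 2. Of its exon bases 9.40% overlap Dtx3l on the other strand.

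The 3 genes past the study's thresholds in the other direction, in both comparisons, were Ifi203, Gbp4 and Helz2. Ifi203, of a family of nucleic acid binding proteins, was at 6.15, 4.98, 3.96 and 5.79 CPM in Ctrl and 3.77 and 2.68 CPM in LSD1skm-/- muscle. Gbp4, an interferon-induced GTPase, was at 2.80, 4.67, 2.57 and 5.47 CPM in Ctrl and 2.11 and 1.41 CPM in LSD1skm-/- muscle. Helz2, which encodes a helicase and coactivator of transcription, was at 10.39, 8.63, 8.73 and 11.58 CPM in Ctrl and 7.76 and 6.21 CPM in LSD1skm-/- muscle. In all 3 genes the LSD1skm-/- libraries were below every Ctrl library, the library labelled Ctrl replicate 4 included. The log2 fold changes with all 6 libraries were -0.70 (SE 0.24) for Ifi203, -1.149 (SE 0.38) for Gbp4 and -0.50 (SE 0.18) for Helz2, each with an edgeR adjusted p of 0.557. None of the 3 passed the thresholds with all 6 libraries once LSD1skm-/- replicate 2 was left out (log2 fold changes -0.47, -0.88 and -0.34), and Ifi203 and Helz2 also did not without Ctrl replicate 1 (-0.61 and -0.47). Leaving out the library labelled Ctrl replicate 4 and 1 more, Ifi203 passed in 2 of 5 fits (log2 fold change -0.91 to -0.41), Gbp4 in 3 of 5 (-1.25 to -0.62) and Helz2 in 3 of 5 (-0.575 to -0.25), each losing its place without LSD1skm-/- replicate 2 and also without Ctrl replicate 1 (Ifi203 and Helz2) or Ctrl replicate 2 (Ifi203 and Gbp4).

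**Figure D3:**
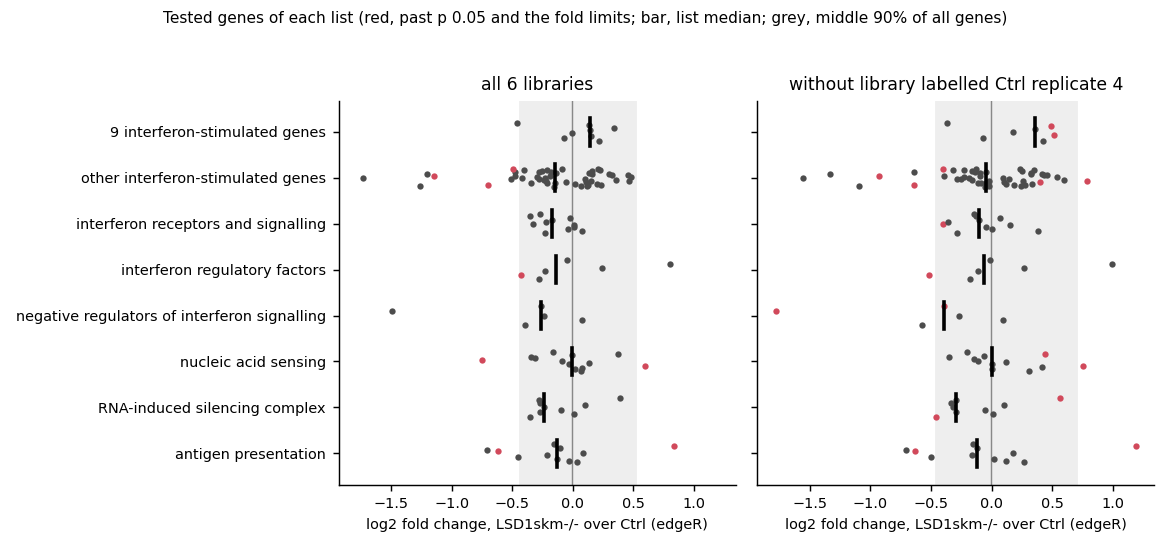
Log2 fold change of LSD1skm-/- over Ctrl (horizontal axis) for every tested gene of each list (rows, 1 point per gene), with all 6 libraries on the left and without the library labelled Ctrl replicate 4 on the right. Bars are list medians, red points pass the study's thresholds and the grey band holds the middle 90% of all tested genes. The median of the 9 genes is at 0.14 on the left and 0.36 on the right, and that of the other interferon-stimulated genes is at -0.15 and -0.04.

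Of the ligands, 1 of 21 interferon genes listed, Ifng, had a row in the table. Ifng had 3 reads in all, 1 in each of 3 libraries (Ctrl replicate 2, the library labelled Ctrl replicate 4 and LSD1skm-/- replicate 2). Of 12 genes of receptors and signaling 11 were tested, and 0 passed the study's thresholds with all 6 libraries. Jak1, the kinase of both receptor types, was at 196, 210, 204 and 161 CPM in Ctrl and 169 and 137 CPM in LSD1skm-/- muscle. Ctrl replicates 1 to 3 were above both LSD1skm-/- libraries, and the library labelled Ctrl replicate 4 lay between these. Jak1 was the only 1 of the 11 to pass the thresholds without the library labelled Ctrl replicate 4 (log2 fold change -0.40, SE 0.12, edgeR adjusted p 0.111), and it did not pass once LSD1skm-/- replicate 2 was left out too (-0.26). In the same comparison the log2 fold changes of Jak2 and Ifngr2, the next most abundant, were -0.36 (SE 0.15) and -0.04 (SE 0.13). That of Jak2 was -0.574 with LSD1skm-/- replicate 1 also left out and -0.181 with LSD1skm-/- replicate 2 left out instead. With Ctrl replicate 1 also left out Jak2 passed the thresholds (-0.453).

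Among 7 interferon regulatory factors 6 were tested. Irf2, which can repress interferon-induced transcription, was at 23.9, 21.4, 23.2 and 17.1 CPM in Ctrl replicates 1 to 4 and at 15.6 and 16.2 CPM in LSD1skm-/- replicates 1 and 2. The LSD1skm-/- libraries were below every Ctrl library, and the library labelled Ctrl replicate 4 was closest to them. Its log2 fold change was -0.42 (SE 0.15, edgeR adjusted p 0.557) with all 6 libraries and -0.52 (SE 0.11, edgeR adjusted p 0.0397) without the library labelled Ctrl replicate 4. Irf2 was the 1 factor of the 6 with an edgeR adjusted p under 0.05 there, beside 5.27% of all tested genes. With 1 more library left out, whichever it was, Irf2 stayed past the study's thresholds (log2 fold change -0.56 to -0.48) and its edgeR adjusted p was between 0.0609 and 0.167. It was 0.176 with Ctrl replicates 1 and 2 both left out. With all 6 libraries and 1 left out it passed them in 2 of 6 fits, without Ctrl replicate 2 or the library labelled Ctrl replicate 4, and it did not pass with Ctrl replicates 1 and 2 both left out (-0.343). Scaling by library size alone gave an edgeR adjusted p of 0.0532. Irf3 was at 14.3, 14.4, 16.3 and 19.7 CPM in Ctrl and 13.5 and 14.1 CPM in LSD1skm-/- muscle, with a log2 fold change of -0.11 (SE 0.12) without the library labelled Ctrl replicate 4. Irf5, a factor of macrophages and B cells, was at 8.17, 9.19, 2.60 and 10.2 CPM in Ctrl and 10.3 and 16.0 CPM in LSD1skm-/- muscle. Like the macrophage markers it was lowest in Ctrl replicate 3 and highest in LSD1skm-/- replicate 2, and their part in its level was not tested. For Irf5 the log2 fold change was 0.80 (SE 0.45) and 0.99 (SE 0.45) in the respective comparisons, and 14.2% of its exon bases overlap Tnpo3 on the other strand. Without Ctrl replicate 3 Irf5 passed the study's thresholds with log2 fold changes of 0.52 and 0.61, and it also did in the second comparison without Ctrl replicate 2 (1.294).

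Of 6 negative regulators 5 were tested. Without the library labelled Ctrl replicate 4 Ptpn11 and Ptpn6 passed the study's thresholds downward, beside 5.05% of all tested genes. Ptpn11, which encodes the phosphatase SHP2, was at 158, 153, 149 and 99.0 CPM in Ctrl and 114 and 119 CPM in LSD1skm-/- muscle, with a log2 fold change of -0.39 (SE 0.09, edgeR adjusted p 0.0588) without the library labelled Ctrl replicate 4. Ptpn6, which encodes the leukocyte phosphatase SHP1, was at 4.21, 3.66, 0.694 and 0.752 CPM in Ctrl and 0.566 and 1.06 CPM in LSD1skm-/- muscle. Ctrl replicates 1 and 2 were high and the other libraries alike, and its log2 fold change of -1.78 (SE 0.72) without the library labelled Ctrl replicate 4 went with the leukocyte markers, whose part was not tested. Of the exon bases of Ptpn6 6.96% overlap an antisense transcript, Gm20531. With 1 more library left out Ptpn6 passed the study's thresholds in 1 of 5 fits (without Ctrl replicate 3) and Ptpn11 in 3 of 5 (not without Ctrl replicate 1 or LSD1skm-/- replicate 1). Pias1 and Ptpn2, the next most abundant, had log2 fold changes of 0.09 (SE 0.14) and -0.27 (SE 0.15).

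Among genes that sense nucleic acid or pass that signal on, 13 of 23 were tested with all 6 libraries. There Ticam1 was past the study's thresholds upward and Sting1 downward, beside 3.43% and 2.88% of all tested genes. Without the library labelled Ctrl replicate 4 Ticam1 and Rnaseh2b passed upward, beside 9.96% of all tested genes. Ticam1 encodes TRIF, the adaptor of the receptors TLR3 and TLR4. Ticam1 was at 3.55, 2.83, 4.22 and 5.11 CPM in Ctrl replicates 1 to 4 and at 6.19 and 5.70 CPM in LSD1skm-/- replicates 1 and 2. Both LSD1skm-/- libraries were above every Ctrl library, and the library labelled Ctrl replicate 4 was the highest of these. The log2 fold change was 0.59 (SE 0.24, edgeR adjusted p 0.557) with all 6 libraries and 0.75 (SE 0.20, edgeR adjusted p 0.0859) without the library labelled Ctrl replicate 4. DESeq2 gave adjusted p of 0.478 and 0.0338, so the call in the second comparison depends on the test. Ticam1 passed the study's thresholds in 5 of 5 fits with 1 more library left out in the latter comparison (0.61 to 0.90), and in 2 of 6 in the former (without Ctrl replicate 3 or the library labelled Ctrl replicate 4). With Ctrl replicates 1 and 2 both left out it passed in neither (0.491 and 0.341). Sting1, the adaptor for cytosolic DNA, was at 1.85, 1.75, 1.301 and 2.19 CPM in Ctrl and 1.16 and 0.955 CPM in LSD1skm-/- muscle, with a log2 fold change of -0.75 (SE 0.29, edgeR adjusted p 0.557) with all 6 libraries, and with 1 left out it passed only without Ctrl replicate 3 among the 5 fits that tested it. Mavs, the adaptor of RIG-I and MDA5 and the most abundant of the list in CPM, was at 47.8, 43.5, 53.7 and 46.1 CPM in Ctrl and 48.6 and 48.2 CPM in LSD1skm-/- muscle, with a log2 fold change of 0.02 (SE 0.11).

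Samhd1, which degrades deoxynucleotides, was at 26.2, 25.6, 24.8 and 24.9 CPM in Ctrl and 20.9 and 19.1 CPM in LSD1skm-/- muscle. All Ctrl libraries were close together and above the LSD1skm-/- libraries, with a log2 fold change of -0.34 (SE 0.10, edgeR adjusted p 0.557) with all 6 libraries that stayed inside the fold limits. Without LSD1skm-/- replicate 1 Samhd1 passed them (-0.412 with the other 5 libraries). Rnaseh2b, a subunit of the enzyme that removes ribonucleotides from DNA, was at 5.80, 5.19, 4.39 and 6.02 CPM in Ctrl and 6.41 and 7.48 CPM in LSD1skm-/- muscle, above every Ctrl library. It had a log2 fold change of 0.44 (SE 0.17, edgeR adjusted p 0.207) without the library labelled Ctrl replicate 4, and passed in 2 of 5 fits with 1 more left out (without Ctrl replicate 1 or LSD1skm-/- replicate 1). For Traf3, an adaptor in these pathways, it was 0.12 (SE 0.13).

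Dhx58, which encodes the RNA sensor LGP2 and is itself induced by interferon, fell below the count limit with a mean count of 46.2 and is given here because its values stood out when they were seen. Dhx58 was at 0.577, 0.891, 0.463 and 1.73 CPM in Ctrl replicates 1 to 4 and at 1.89 and 2.02 CPM in LSD1skm-/- replicates 1 and 2. Both LSD1skm-/- libraries were above every Ctrl library, the library labelled Ctrl replicate 4 was just below them, and Ctrl replicates 1 to 3 were lower again. In the filterByExpr fit its log2 fold change was 1.08 (SE 0.48, edgeR adjusted p 0.584) with all 6 libraries and 1.597 (SE 0.32, edgeR adjusted p 0.0353) without the library labelled Ctrl replicate 4. With 1 more library left out that edgeR adjusted p ran from 0.0209 to 0.221, and it was above 0.05 without Ctrl replicate 1 (0.0988), LSD1skm-/- replicate 1 (0.136) or LSD1skm-/- replicate 2 (0.221). Of the exon bases of Dhx58 4.31% overlap an antisense transcript, Dhx58os.

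Dhx58 did not pass the study's thresholds in the filterByExpr fit with all 6 libraries (edgeR p 0.0573). Below the count limit 2 genes of the lists did, both interferon-stimulated, and they went the other way. They were also chosen after their values were seen. Ifitm1, which encodes a membrane protein that hinders virus entry, was at 0.491, 0.461, 0.202 and 0.570 CPM in Ctrl replicates 1 to 4 and at 0.126 and 0.133 CPM in LSD1skm-/- replicates 1 and 2, and had a mean count of 12.2. Nlrc5, a regulator of antigen presentation genes, was at 0.866, 1.598, 0.578 and 1.37 CPM in Ctrl and 0.566 and 0.371 CPM in LSD1skm-/- muscle. In both genes the LSD1skm-/- libraries were below every Ctrl library, though for Nlrc5 Ctrl replicate 3 was close to LSD1skm-/- replicate 1. The log2 fold changes with all 6 libraries were -1.71 (SE 0.56) for Ifitm1 and -1.23 (SE 0.49) for Nlrc5, each with an edgeR adjusted p of 0.583, and without the library labelled Ctrl replicate 4 they were -1.55 (SE 0.58, edgeR adjusted p 0.201) and -1.12 (SE 0.50, edgeR adjusted p 0.283), where Nlrc5 no longer passed. With all 6 libraries Ifitm1 lost its place without either LSD1skm-/- replicate (-1.68 without replicate 1 and -1.75 without replicate 2), as it did in the other comparison (-1.52 and -1.58), and Nlrc5 also without Ctrl replicate 2 (-1.01) or either LSD1skm-/- replicate (-1.56 and -0.95). In the other comparison Nlrc5 passed once Ctrl replicate 3 was left out too (-1.40).

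In other cells the machinery that processes double-stranded RNA has been linked to the interferon response after LSD1 loss, so 9 genes of small RNA processing and the RNA-induced silencing complex were listed, and all 9 were tested. Dicer1 was at 49.4, 59.8, 53.5 and 38.5 CPM in Ctrl and 42.9 and 35.7 CPM in LSD1skm-/- muscle, and Ago2 was at 74.9, 87.7, 79.8 and 63.4 CPM in Ctrl and 69.1 and 60.2 CPM in LSD1skm-/- muscle. In both genes Ctrl replicates 1 to 3 were above the LSD1skm-/- libraries and the library labelled Ctrl replicate 4 lay between these. Without the library labelled Ctrl replicate 4 the log2 fold change was -0.46 (SE 0.13, edgeR adjusted p 0.101) for Dicer1, -0.32 (SE 0.12, edgeR adjusted p 0.186) for Ago2 and 0.01 (SE 0.13) for Drosha. Prkra, which encodes an activator of the RNA-dependent kinase PKR, was at 3.35, 3.84, 3.21 and 5.20 CPM in Ctrl and 5.37 and 4.85 CPM in LSD1skm-/- muscle. Prkra had a log2 fold change of 0.56 (SE 0.17, edgeR adjusted p 0.111) without the library labelled Ctrl replicate 4. By the study's thresholds 1 gene of the list, Prkra, was called higher and 1, Dicer1, was called lower in that comparison, where 9.96% and 5.05% of all tested genes were. Dicer1 no longer passed once LSD1skm-/- replicate 2 was left out (-0.34), nor Prkra once LSD1skm-/- replicate 1 was (0.49).

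The antigen presentation genes, which interferon gamma induces, were all tested (11 of 11). Psme1, which encodes a subunit of the PA28 proteasome activator, was at 27.6, 22.7, 23.7 and 52.0 CPM in Ctrl replicates 1 to 4 and at 48.4 and 64.4 CPM in LSD1skm-/- replicates 1 and 2. The library labelled Ctrl replicate 4 lay between the LSD1skm-/- libraries, and Ctrl replicates 1 to 3 were below all 3 of these. The log2 fold change was 0.84 (SE 0.33, edgeR adjusted p 0.557) with all 6 libraries and 1.196 (SE 0.15, edgeR adjusted p 0.00639, a fold change of 2.29) without the library labelled Ctrl replicate 4. Psme1 kept an edgeR adjusted p under 0.05 in that comparison with any 1 more library left out except LSD1skm-/- replicate 2 (0.0578). By the labels it passed the study's thresholds with 1 library left out only when that was the library labelled Ctrl replicate 4, and it did not pass with Ctrl replicates 1 and 2 both left out (0.566). Its partner Psme2, chosen for naming after its values were seen, was at 6.87, 5.32, 5.32 and 5.88 CPM in Ctrl and 3.83 and 6.63 CPM in LSD1skm-/- muscle, so the groups overlapped. Psmb8, a subunit of the immunoproteasome, was at 5.28, 4.89, 3.15 and 4.24 CPM in Ctrl and 2.77 and 2.94 CPM in LSD1skm-/- muscle, with log2 fold changes of -0.62 (SE 0.24) and -0.63 (SE 0.25). With 1 library left out Psmb8 passed in 2 of 6 and 1 of 5 fits, losing its place without Ctrl replicate 1, Ctrl replicate 2 or either LSD1skm-/- replicate. Of its exon bases 14.7% overlap an antisense transcript, Gm20496. The most abundant in CPM, B2m, H2-D1 and H2-K1, had log2 fold changes of 0.02 (SE 0.16), 0.12 (SE 0.14) and 0.27 (SE 0.17) without the library labelled Ctrl replicate 4, and all 3 were highest in that library.

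**Figure D4:**
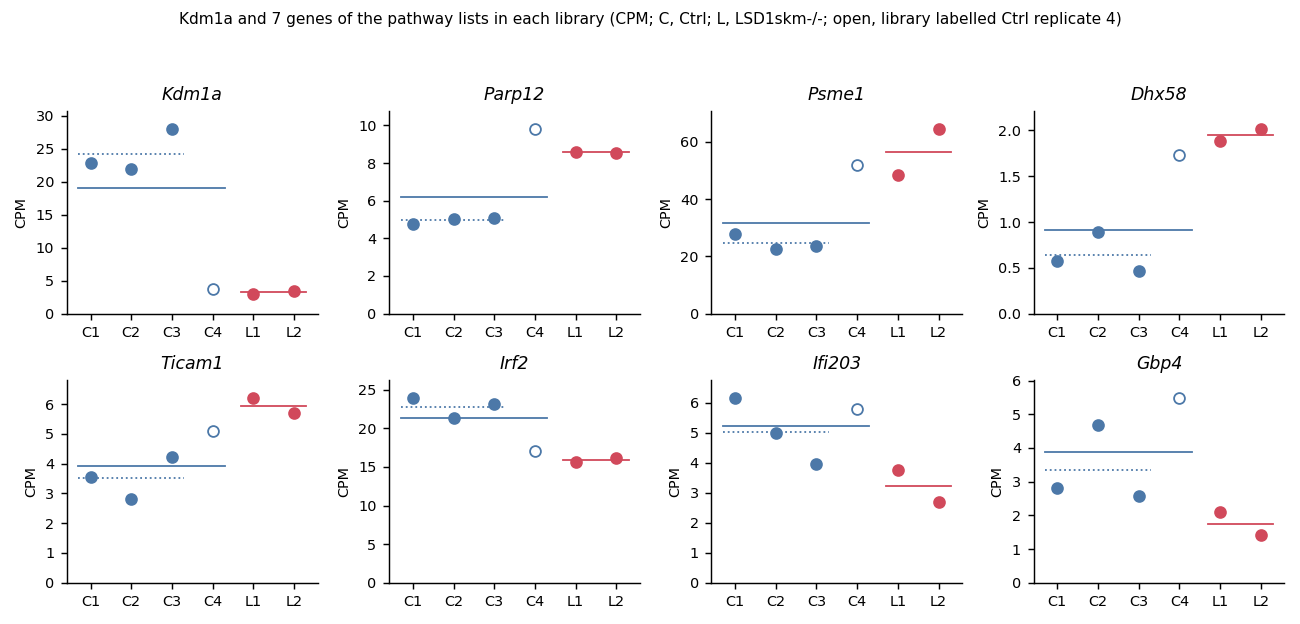
Kdm1a and 7 genes of the pathway lists in each library, in CPM on axes that start at 0, with points and lines as in the plot of the 9 genes by library. The library labelled Ctrl replicate 4 (open) is with the LSD1skm-/- libraries for Kdm1a, Parp12, Psme1 and Dhx58, and with the Ctrl libraries for Ifi203 and Gbp4.

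The libraries also differed in other cells of the muscle, many of which express interferon-stimulated genes. The 5 B cell markers summed to 22.02 and 20.9 CPM in Ctrl replicates 1 and 2, to 0.202 in Ctrl replicate 3 and 0.410 in the library labelled Ctrl replicate 4, and to 0.314 and 0.239 CPM in LSD1skm-/- muscle. Their most abundant gene was Cd79b, and Cd79a was at 0 in Ctrl replicate 3 and LSD1skm-/- replicate 2. The 10 T and NK cell markers were placed alike, at 5.89, 4.09, 0.260 and 0.479 CPM in Ctrl and 0.251 and 0.292 CPM in LSD1skm-/- muscle, Lck being the most abundant and Cd3e at 0 in Ctrl replicate 3 and both LSD1skm-/- libraries. The 5 pan-leukocyte markers summed to 39.2, 36.4, 6.33 and 10.7 CPM in Ctrl and 9.43 and 13.5 CPM in LSD1skm-/- muscle, Coro1a being the most abundant. Lymphocyte markers were thus high in Ctrl replicates 1 and 2 and near 0 elsewhere. The 3 plasmacytoid dendritic cell markers, of a cell that makes much interferon, summed to 2.89, 2.98, 0.376 and 0.251 CPM in Ctrl and 0.377 and 0.239 CPM in LSD1skm-/- muscle. Spib, which B cells share, was at 2.45 and 2.43 CPM in Ctrl replicates 1 and 2, most of their sums, and at most at 0.0912 CPM in the other libraries, below Siglech there. Siglech was at 0.346, 0.461, 0.231 and 0.137 CPM in Ctrl and 0.283 and 0.212 CPM in LSD1skm-/- muscle. The neutrophil markers, 4 of 5 with a row, summed to 1.44, 0.830, 0.173 and 0.365 CPM in Ctrl and 0.314 and 0.477 CPM in LSD1skm-/- muscle, S100a9 being the most abundant, and were also highest in Ctrl replicates 1 and 2.

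An alternative added after the markers were seen left out Ctrl replicates 1 and 2. The median log2 fold change of the tested genes of the group was then -0.01 with the library labelled Ctrl replicate 4 and 0.23 without it. For all tested genes the medians were -0.01 and 0.0005. Without it 1 Ctrl library remains, assumed to vary like the LSD1skm-/- libraries. In that fit the log2 fold change was 0.23 (SE 0.30) for Ifih1, 0.72 (SE 0.33) for Irf7 and -0.75 (SE 0.30) for Rsad2. Ifit1 turned from above to below 0 in both comparisons (-0.164 with the library labelled Ctrl replicate 4 and -0.045 without it), and Irf7 did with that library (-0.07).

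The 12 macrophage markers summed to 112, 87.6, 53.5 and 86.1 CPM in Ctrl and 80.6 and 131 CPM in LSD1skm-/- muscle, Lyz2 being the most abundant, so that LSD1skm-/- replicate 2 was the highest and Ctrl replicate 3 the lowest. The 8 endothelial markers summed to 220, 222, 241 and 294 CPM in Ctrl and 190 and 194 CPM in LSD1skm-/- muscle, with Cdh5 the most abundant. Both LSD1skm-/- libraries were below every Ctrl library in the endothelial sum and the library labelled Ctrl replicate 4 was the highest, as it was for the 9 genes. The 7 fibroblast markers, led by Dcn, summed to 459, 430, 477 and 700 CPM in Ctrl and 608 and 719 CPM in LSD1skm-/- muscle, so the library labelled Ctrl replicate 4 lay between the LSD1skm-/- libraries. The 5 adipocyte markers, led by Adipoq, summed to 33.3, 31.6, 2.17 and 52.6 CPM in Ctrl and 0.817 and 1.56 CPM in LSD1skm-/- muscle. Ctrl replicates 1 and 2 and the library labelled Ctrl replicate 4 were thus high in adipocyte markers and the other 3 libraries low. The 5 erythrocyte markers, led by Hbb-bs, were at 43.5, 28.1, 36.5 and 52.1 CPM in Ctrl and 63.95 and 65.7 CPM in LSD1skm-/- muscle, above every Ctrl library. The 4 satellite cell markers, led by Pax7, were at 4.53, 5.59, 6.22 and 10.5 CPM in Ctrl and 10.2 and 7.50 CPM in LSD1skm-/- muscle. The 10 myofiber markers summed to 210000, 199330, 222630 and 191740 CPM in Ctrl and 187230 and 200830 CPM in LSD1skm-/- muscle, so the groups overlapped, and 6 of the 10 had a log2 fold change above 0 with all 6 libraries (median 0.02). Their most abundant gene, Myh4, was at 52775, 51209, 56932 and 39074 CPM in Ctrl and 39698 and 35160 CPM in LSD1skm-/- muscle. The part of these cell types in the levels of the interferon-stimulated genes was not tested.

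**Figure D5:**
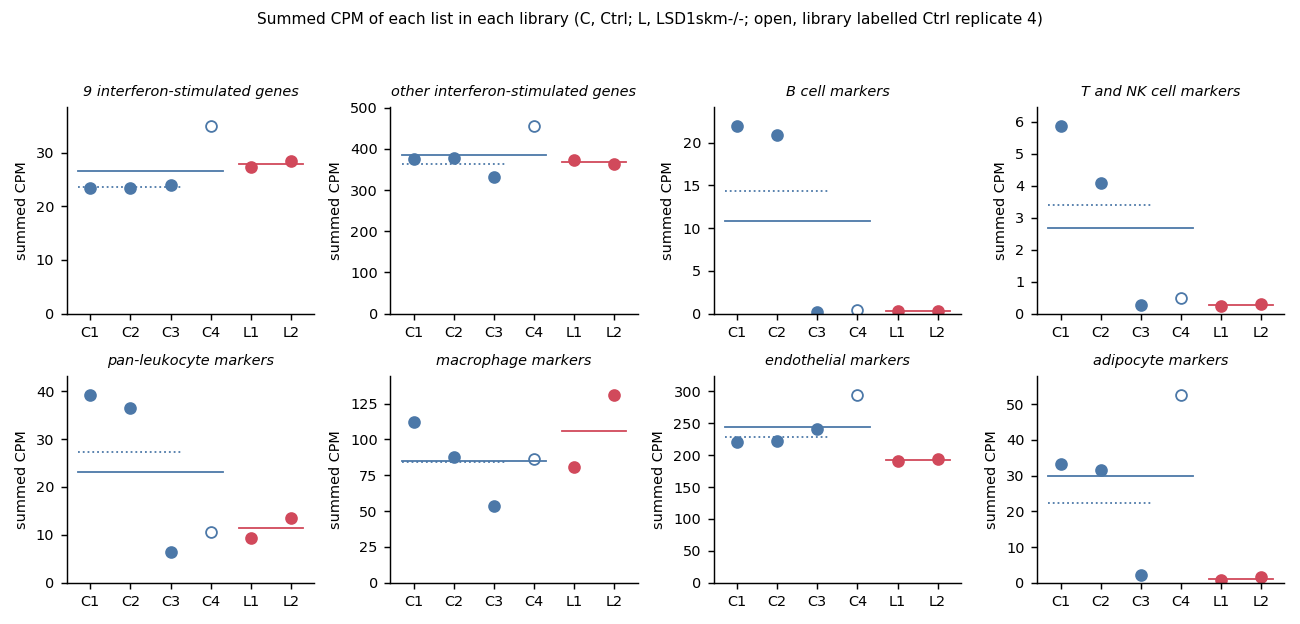
Summed CPM of the 9 interferon-stimulated genes, of 77 other interferon-stimulated genes and of 6 marker lists in each library, on axes that start at 0, with points and lines as in the plot of the 9 genes by library. The 9 genes sum to between 23.4 and 24.0 CPM in Ctrl replicates 1 to 3, 27.2 and 28.5 CPM in LSD1skm-/- muscle and 35.02 CPM in the library labelled Ctrl replicate 4, while B cell markers are high in Ctrl replicates 1 and 2 alone.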

How the data were processed

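Libraries were made from polyA RNA with a stranded kit. The authors sequenced them, kept reads aligned once to mm10 and deposited whole-number counts of reads per gene, with symbols and no coordinates. Whether counting used strand is not stated. The labels describe 8 libraries, and 6 have counts. LSD1skm-/- replicates 3 and 4 were not analysed here. No column of the authors' own comparisons was present. Genes averaging more than 50 counts in the libraries compared were fitted with edgeR 4.0.16 in R 4.3.3 (TMM scaling, quasi-likelihood F test, condition only, two-sided), with Benjamini-Hochberg adjustment over all genes tested. DESeq2 1.42.0 was the alternative test. SE was derived from the fold change and F. CPM used TMM-scaled totals, with a prior count of 2 on the log2 scale. Exon lengths, overlaps and stretches of 50 bases came from GENCODE vM21 on GRCm38.

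The members and gene lists were chosen with earlier results of these data known. Named genes were the 9 members, Kdm1a, genes of each other list past p 0.05 and the fold limits in either comparison, the 3 most abundant of each list, and the 8 most similar in pattern. Psme2, Mx1, Dhx58, Ifitm1, Nlrc5, Ifit3b, Cd79a, Cd3e, Siglech and Spib were named after seeing their values, and the marker lists reported are given by their sums. The values of 1 other marker list are not reported here. Fits were tested on simulated data in which 200 genes changed by a fold of 2. They recovered 194 with 4 against 2 libraries and 191 with 3 against 2. The simulation gave every gene the same low dispersion and held no library that went against its label. It checks the fitting and does not give the power to find changes in these data. Total counts per library ran from 30654828 to 41278769, so a gene near a mean count of 50 carries counting error beside the spread between mice.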

Additional observations from a re-analysis of the deposited data

Results flagged for a closer look

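In the 4 Ctrl libraries, 1 library stood apart from the other 3 on the log2 CPM scale for 7 of the named genes, by its gap to the nearest library as a share of the whole range. The library labelled Ctrl replicate 4 did so for Kdm1a (0.879), Parp9 (0.908), Parp12 (0.909), Slfn5 (0.875) and Ptpn11 (0.875). It was low for Kdm1a and Ptpn11 and high for Parp9, Parp12 and Slfn5. Ctrl replicate 3 was low for Irf5 (0.838), and Ctrl replicate 1 was high for Ptpn2 (0.843). Chance marks about 1 gene in 20 in this way when genes are picked without regard to their values. The named genes were not picked so. Parp9, Parp12 and Ptpn11 passed the study's thresholds only without the library labelled Ctrl replicate 4, which was set aside for its Kdm1a level. Their marks follow in part from that choice and cannot be set against the rate of chance. None of the 9 interferon-stimulated genes was marked among those with a mean count above 50.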

How the results depend on the processing

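Of the interferon-stimulated genes with a mean count above 50 (7 or 8 of the 9), 0 had an edgeR or DESeq2 adjusted p under 0.05 under the alternatives run, in both comparisons. Below that limit, Isg15 had edgeR adjusted p of 0.823 and 0.377 in the filterByExpr fits of the respective comparisons. Usp18 had 0.804 in that fit without the library labelled Ctrl replicate 4. Genes below the limit are not in the counts that follow. With all 6 libraries the number past the study's thresholds was 0, 2 with the replicate block (Ifih1 and Ifit1, log2 fold change 0.63 and 0.727), 1 with Ctrl replicates 1 and 2 left out (Rsad2, lower, -0.727), and 0 to 2 with each library left out in turn, the 2 without the library labelled Ctrl replicate 4. The median log2 fold change ran from 0.007 to 0.359 with each library left out, lowest without LSD1skm-/- replicate 2. Without the library labelled Ctrl replicate 4 the number past the thresholds was 2 (Irf7 and Ifih1; with the replicate block Ifih1 and Ifit1, at 0.637 and 0.733), 0 with DESeq2, 1 with DESeq2 size factors in edgeR, and 0 to 2 with 1 more library left out (none without LSD1skm-/- replicate 2, Irf7 without Ctrl replicate 1 or LSD1skm-/- replicate 1, Bst2 without Ctrl replicate 2, Ifih1 and Ifit1 without Ctrl replicate 3). The median of 0.36 there became 0.421 with library size scaling, 0.264 with the replicate block, 0.229 without Ctrl replicates 1 and 2 (a choice made after seeing the data), and 0.255 to 0.451 with 1 more library left out. The cause was not tested. The replicate block compares libraries of the same number, so Ctrl replicate 3 and the library labelled Ctrl replicate 4, which have no partner, add nothing to its fold changes, and its counts differ from the others for that reason too. In the labels the groups share only numbers. Deviations of libraries with the same number had correlations of -0.23 and -0.03. With 2 LSD1skm-/- libraries the deviations of these are mirror images, so the correlations cannot show whether libraries of the same number belong together. Among all tested genes with all 6 libraries, edgeR called 717 by the study's thresholds, 1909 without a count filter, 1668 with the replicate block, 1681 without the library labelled Ctrl replicate 4, 478 without Ctrl replicate 1 and 339 without LSD1skm-/- replicate 2. At an adjusted p under 0.05 it called 0, DESeq2 46, edgeR without a filter 149, and 632 with the block. Without the library labelled Ctrl replicate 4, 590 became 1037 with DESeq2, 1914 without a filter, 355 without Ctrl replicate 1, and 203 and 94 without LSD1skm-/- replicates 1 and 2. Library size scaling moved the share of calls that were higher from 66.3% to 79.5%.

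With all 6 libraries the 95% intervals reach from -0.70 to 1.01 for Irf7, -0.58 to 1.003 for Ifit1 and -1.11 to 0.19 for Rsad2, and changes inside them cannot be told from none. Mean counts from 36.8 (Isg15) to 237 (Bst2) per library add counting error.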
